A study of Rattus norvegicus with 18 samples.

Results

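rno-miR-135a*, rno-miR-140* and rno-miR-322* are 3 rat miRNA strands that carried the star name, which older nomenclature gave to the arm of a hairpin thought to be the minor product. They were followed in small RNA libraries of the developing Sprague Dawley rat brain, and are 3 of 691 mature sequences counted. A read was counted for a strand when it was identical to the mature sequence over their common length, began within 3 nt of its 5′ end and ended at most 3 nt past its 3′ end. The label was forebrain for E10 and E13, and cortex or somatosensory cortex for E17, P0, P3, P7, P14 and P28, so that stage and tissue cannot be told apart between the first pair of stages and the later ones. The labels name no treatment. The 9 tissue samples (2 for P0 and 1 for each of the remaining stages) went through 2 technical runs each, giving 18 libraries. The labels do not tie the tissue samples to single animals, and a p-value here measures only the spread between these tissue samples.

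A miRNA hairpin is cut by Dicer into a short duplex, of which 1 strand is usually kept in an Argonaute protein and the other degraded. The kept strand recognises its targets mainly through the seed, bases 2 to 8 from its 5′ end, so a shift of the 5′ end gives another seed. Either arm can be the one kept, and the balance between arms can differ between tissues. miR-140 is best known from cartilage, and miR-322 belongs to a cluster with miR-503 that is known from the control of the cell cycle.

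The mature sequences are shown because the seed of each strand, and the base at which its reads began, carry the results below. The seed is in capitals.
rno-miR-135a*: tGTAGGGAtggaagccatgaaa
rno-miR-140*: tACCACAGggtagaaccacgga
rno-miR-322*: aAACATGAagcgctgcaacac
The first equals the RefSeq entry rno-miR-135a-3p, and the others run 1 nt past the 3′ ends of the RefSeq entries rno-miR-140-3p and rno-miR-322-3p. All 3 are therefore 3p arms. Their partner strands, the 5p arms of the same hairpins, have other seeds.
rno-miR-135a-5p: tATGGCTTtttattcctatgtga
rno-miR-140-5p: cAGTGGTTttaccctatggtag
rno-miR-322-5p: cAGCAGCAattcatgttttgga

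In the RefSeq annotation of the rat assembly GRCr8, Mir135a lies on the minus strand at chr7:28499166-28499265, within the span of the long noncoding RNA gene LOC102548260. Mir140 lies on the plus strand at chr19:52375293-52375391, within the span of Wwp2, a gene for a ubiquitin ligase. Mir322 lies on the minus strand at chrX:137726147-137726241, within the span of the long noncoding RNA gene LOC102550366. Mir503 is 221 bp from Mir322, Mir351 951 bp, Mir542 3893 bp, Mir450b-1 5001 bp and Mir450a1 5124 bp.

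The libraries held 4899010 to 16590379 clean reads, fewer in run 1 (4899010 to 11043948) than in run 2 (12769251 to 16590379). Levels are given as TPM, reads per 1e6 clean reads of the library. Run 2 of E10 stood apart, with 0.178% of its counted miRNA reads at 18 to 19 nt against 11.3% to 33.1% in the others, and run 1 of P0 replicate 1 had the highest such share. Of the marker lists of other cell types, those of mesenchyme, blood and ciliated cells had their highest summed level at a forebrain stage. The summed level of 13 detected markers of mesenchyme, meninges and muscle was 32101 TPM at E10 and 43225 TPM at E13, most of it rno-miR-199a-3p (29748 and 40984 TPM), against 620 to 6599 TPM from E17 on. Of these markers 7 had their highest level at E10 or E13 and 6 in a postnatal sample, among them rno-miR-206-3p (1405 TPM at P14) and rno-miR-1b (1808 TPM at P28), and rno-miR-1-5p was at 0. The 8 blood markers summed to 1273 TPM at E10 and 56.3 to 131 TPM elsewhere, led by rno-miR-451-5p, and the markers of ciliated cells, led by rno-miR-34c-5p, to 6084 TPM at E10 and 88.9 to 414 TPM elsewhere. The endothelial markers, led by rno-miR-126a-5p, summed to 49.9 to 204 TPM (highest at P14), and the liver markers, led by rno-miR-122-5p, to 22.7 to 98.8 TPM (highest in P0 replicate 1). The endothelial sum was 192 TPM at E10, where rno-miR-126a-3p had its highest level (80.1 TPM). The 8 neural markers summed to 31199 TPM (E13) to 191472 TPM (P14), with rno-miR-128-1-5p at 0 in P0 replicate 2. Of these, 3 had their highest level at a forebrain stage and 5 in a cortex sample. rno-miR-128-3p had the highest mean over the tissue samples, but it did not lead at the forebrain stages. At E10 it was at 1654 TPM of a sum of 74306 TPM, most of it rno-miR-9a-5p (66760 TPM), and at E13 at 5064 TPM. In bulk tissue, fewer cells of a type and less RNA per cell cannot be told apart.

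The star strands were abundant, and each was above its partner strand in the mean of the tissue samples. rno-miR-140* ranked 15th of the 691 sequences by mean level, rno-miR-322* 33rd and rno-miR-135a* 85th. These sequences do not include miR-124, which the study lists among its most highly expressed miRNAs at every stage, so the ranks hold only within them. Over all libraries they gave 2102621, 416284 and 80345 reads, and their lowest counts in a library were 34121, 8813 and 245 reads. All 3 had their highest tissue-sample mean at E13. The highest mean was 51.7 times the lowest for rno-miR-135a*, 4.34 times for rno-miR-140* and 4.74 times for rno-miR-322*.

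rno-miR-135a* was measured at 1125 TPM in run 1 and 724 TPM in run 2 at E10, at 2333 and 1204 TPM at E13, and at 561 and 456 TPM at E17. At birth it was at 218 and 59.0 TPM in P0 replicate 1 and at 23.9 and 44.5 TPM in P0 replicate 2. It was at 33.2 and 56.6 TPM at P3, 139 and 66.5 TPM at P7, 266 and 129 TPM at P14, and 116 and 105 TPM at P28. By the means of both runs the order was E13 (1769 TPM), E10 (924 TPM), E17 (509 TPM), P14 (198 TPM), P0 replicate 1 (139 TPM), P28 (110 TPM), P7 (103 TPM), P3 (44.9 TPM) and P0 replicate 2 (34.2 TPM). The run values of E13, E10 and E17 did not overlap with those of the next in this order, nor did those of P7 and P3, whereas all other neighbours overlapped. The P0 tissue samples gave 86.4 ± 73.8 TPM (SD, n = 2), an SD close to the mean.

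rno-miR-140* was the most abundant of the 3 in every library but run 1 of E17, where rno-miR-322* was at a like level. It was measured at 23380 TPM in run 1 and 12291 TPM in run 2 at E10, at 21675 and 24951 TPM at E13, and at 6372 and 9095 TPM at E17. P0 replicate 1 had 9305 and 3201 TPM, P0 replicate 2 12389 and 6326 TPM, P3 10155 and 6866 TPM, P7 5400 and 5350 TPM, P14 6965 and 7350 TPM, and P28 6651 and 7377 TPM. The means were highest at E13 (23313 TPM) and E10 (17836 TPM) and lay between 5375 TPM (P7) and 9357 TPM (P0 replicate 2) in all cortex samples. The run values of every pair of neighbours in the order overlapped. P0 gave 7805 ± 2195 TPM (SD, n = 2).

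rno-miR-322* was higher in run 1 than in run 2 in all 9 tissue samples. It was measured at 3535 TPM in run 1 and 1405 TPM in run 2 at E10, at 7490 and 2412 TPM at E13, and at 6449 and 1735 TPM at E17. P0 replicate 1 had 4810 and 875 TPM, P0 replicate 2 1380 and 789 TPM, P3 1221 and 870 TPM, P7 3556 and 656 TPM, P14 2820 and 951 TPM, and P28 1816 and 531 TPM. The means ran from 1045 TPM at P3 to 4951 TPM at E13, and the run values of every pair of neighbours overlapped. P0 gave 1964 ± 1243 TPM (SD, n = 2).

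**Figure D1:**
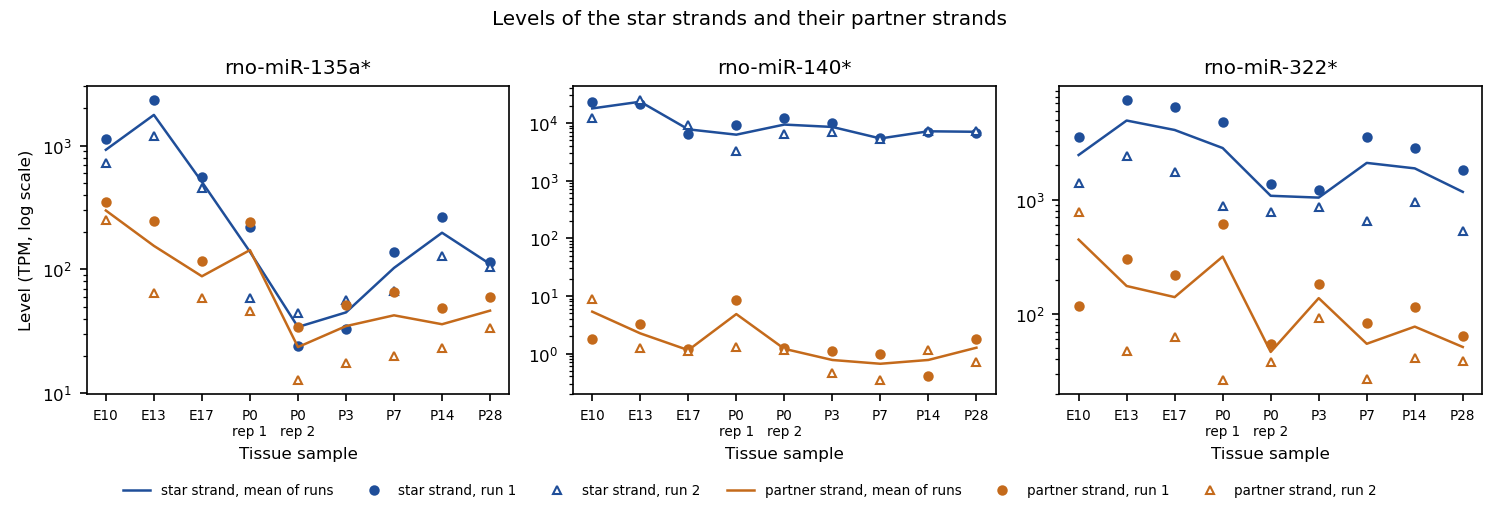
Level in TPM (log scale) of each star strand (blue) and its partner strand (orange) in the 9 tissue samples, with circles for run 1, triangles for run 2 and lines through the means. rno-miR-135a* goes from 1769 TPM at E13 to 34.2 TPM in P0 replicate 2, and rno-miR-140* lies far above its partner throughout.

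Over the 8 stages, rno-miR-135a* fell and the slopes of the other 2 star strands did not pass the test. The slope of the log2 count per step of stage order was -0.47 (SE 0.14, adjusted p = 0.0150, edgeR quasi-likelihood test with Benjamini-Hochberg adjustment) for rno-miR-135a*, -0.14 (SE 0.12, adjusted p = 0.321) for rno-miR-140* and -0.21 (SE 0.13, adjusted p = 0.180) for rno-miR-322*. Of 477 sequences tested, 44.4% passed, 27.3% downward and 17.2% upward, and the median slope was -0.086, so that 1 of 3 star strands passing is near the background. The call for rno-miR-135a* was lost without E13 (adjusted p = 0.0788) or without P28 (adjusted p = 0.0546), in run 1 alone (adjusted p = 0.0611) and with identical tags only (adjusted p = 0.0565). rno-miR-140* passed without TMM scaling (-0.23, adjusted p = 0.0384), and rno-miR-322* passed without E10 (-0.32, adjusted p = 0.0251). Both stages labelled forebrain are in this fit, where the sum of the mesenchymal markers was highest, though 6 of the 13 peaked in postnatal samples. All 8 blood markers and all 6 markers of ciliated cells had their highest level at these stages. The part of these markers in the result was not tested.

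Within cortex, from E17 to P28, rno-miR-322* fell and the other star strands did not pass. Its slope was -0.37 (SE 0.11, adjusted p = 0.0178), against -0.35 (SE 0.16, adjusted p = 0.104) for rno-miR-135a* and -0.19 (SE 0.13, adjusted p = 0.266) for rno-miR-140*. Of 453 sequences 42.4% passed, 20.8% downward and 21.6% upward, with a median slope of -0.050. Without TMM scaling the median slope was 0.078, with 15.9% downward and 26.5% upward. The fall of rno-miR-322* no longer passed without E17 (adjusted p = 0.148) or P28 (adjusted p = 0.0652), in run 1 alone (adjusted p = 0.161), without TMM scaling (-0.26, adjusted p = 0.113) or in the study's shorter list of sequences (-0.25, adjusted p = 0.113). With each run entered as a library of its own and a replicate block for the run, rno-miR-135a* also passed (-0.36, adjusted p = 0.0473). That fit counts the technical runs of a tissue sample as replicates, and its p-values are too small for that reason. Without E17 the slope of rno-miR-135a* was 0.15 (adjusted p = 0.471). The differences between the star strands in slope were not tested.

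The partner strands and the genomic neighbours gave negative slopes as well. rno-miR-135a-5p fell over the 8 stages (-0.31, SE 0.09, adjusted p = 0.0163), whereas rno-miR-322-5p (-0.32, adjusted p = 0.0503) and rno-miR-140-5p (-0.24, adjusted p = 0.148) did not pass. Within cortex rno-miR-322-5p fell (-0.45, SE 0.16, adjusted p = 0.0369), as its star strand did. Of 10 arms from the other hairpins of the miR-322 cluster, 3 fell and 0 rose over the 8 stages, with a median slope of -0.23 against -0.086 over all sequences. This is near the 27.3% of all sequences that passed downward. The 3 were rno-miR-503-5p (-0.46, adjusted p = 0.00185), rno-miR-351-3p (-0.56, adjusted p = 0.000950) and rno-miR-542-3p (-0.23, adjusted p = 0.0493). Within cortex 2 of the 10 fell and 0 rose, rno-miR-503-5p (-0.54, adjusted p = 0.00378) and rno-miR-503-3p (-0.30, adjusted p = 0.0489), again near the 20.8% of all sequences. Both arms of miR-135b, the relative of miR-135a, fell over the 8 stages (rno-miR-135b-5p -0.52, adjusted p = 0.0311; rno-miR-135b-3p -0.81, adjusted p = 0.00142) and within cortex (-0.83, adjusted p = 0.00287, and -1.09, adjusted p = 0.000388).

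**Figure D2:**
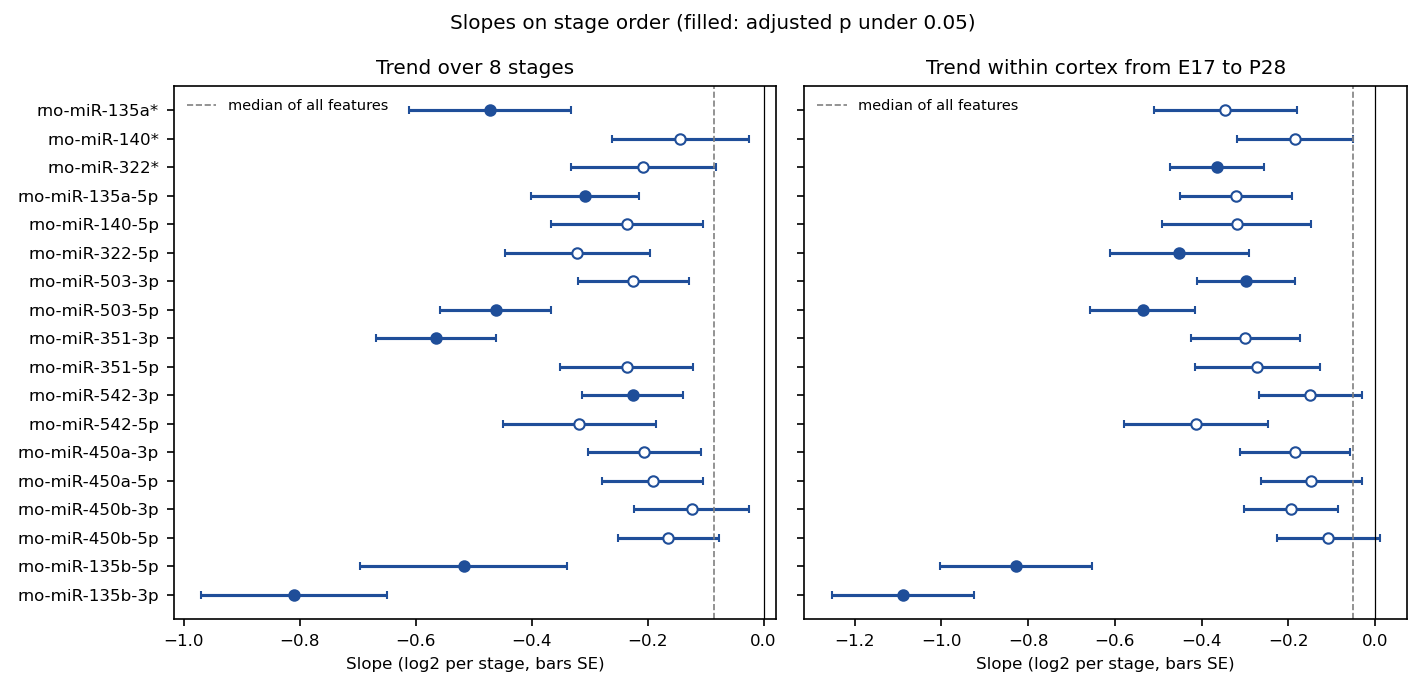
Slope of the log2 count per step of stage order with its SE for the star strands, their partners and their cluster and family members, over all 8 stages (left) and within cortex (right), filled where the adjusted p passed and with the median of all sequences dashed. rno-miR-135a* is filled on the left, rno-miR-322* on the right and both arms of miR-135b on both sides, and no point lies above 0.

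Between the technical runs the difference passed for rno-miR-322* and not for the other star strands. Run 2 against run 1, with the tissue sample as a block, gave -1.20 on the log2 scale (SE 0.29, adjusted p = 0.00386, edgeR quasi-likelihood test), with run 1 higher by 1.40 times (P3) to 5.50 times (P0 replicate 1). The values for rno-miR-135a* (-0.093, adjusted p = 0.837) and rno-miR-140* (0.056, adjusted p = 0.895) did not pass, and their ratios of run 1 to run 2 ran from 0.536 to 3.70 and from 0.701 to 2.91. The partner rno-miR-135a-5p was lower in run 2 (-0.98, adjusted p = 0.00499) and higher in run 1 in 9 of 9 tissue samples by TPM. Of 475 sequences 43.6% passed, 17.5% lower and 26.1% higher in run 2, and the TPM was higher in run 1 in each of the 9 tissue samples for 11.6%, rno-miR-322* among them, and in run 2 for 6.95%. Without TMM scaling the upward part of the passing calls changed from 59.9% to 38.9% and the median from 0.20 to -0.22, and the value of rno-miR-140* turned to -0.34. In the miR-322 cluster, rno-miR-351-3p (1.51) and rno-miR-542-5p (1.497) were higher in run 2 (adjusted p = 0.00622 for each). rno-miR-450a-3p (-0.86), rno-miR-450a-5p (-0.80) and rno-miR-450b-5p (-1.02) were lower, with adjusted p = 0.0266, 0.0306 and 0.00780.

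In each hairpin the arm named star gave more reads than its partner in all 9 tissue samples. With the runs summed, the mean log2 ratio of 3p to 5p reads was 12.60 ± 0.999 (SD, n = 9) for Mir140, 4.09 ± 1.04 for Mir322 and 1.58 ± 1.15 for Mir135a, or 6190-fold, 17.1-fold and 3.00-fold. Each had an exact two-sided sign-flip permutation p = 0.00391, the smallest that 9 samples allow, and an adjusted p = 0.00453. Of 123 hairpins with enough reads of both arms, 91.1% passed in either direction and 35.8% passed with the 3p arm higher, and the median was -1.15, toward the 5p arm. Mir140 ranked 1st among them, Mir322 14th and Mir135a 41st in excess of the 3p arm.

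The partner of rno-miR-140*, rno-miR-140-5p, gave 416 reads in all libraries and 2 to 145 in a single one. Its tissue-sample means ran from 0.664 TPM at P7 to 5.32 TPM at E10. The ratio of the arms lay between 1454 in P0 replicate 1 and 12138 at E13. The lowest ratios, at E10 and in P0 replicate 1, rested on 165 and 77 partner reads, with 95% intervals of 2394 to 3247 and 1163 to 1817 (counting error only) against 8880 to 16593 at E13. The value at E10 came from run 2, with a ratio of 1392 on 145 partner reads against 12911 on 20 in run 1. In P0 replicate 1 the ratio was 1110 in run 1 and 2503 in run 2. The other tissue samples had 12 to 39 partner reads, and their order is uncertain at this depth.

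For Mir322 the ratio was 4.41 at E10, 30.4 at E13, 29.0 at E17, 10.0 in P0 replicate 1, 23.0 in P0 replicate 2, 7.71 at P3, 35.6 at P7, 23.9 at P14 and 21.1 at P28. The low value at E10 came from run 2, where the ratio was 1.81 against 29.9 in run 1, and rno-miR-322-5p was at 778 TPM against 118 TPM. In P0 replicate 1 the partner was at 610 TPM in run 1 and 26.2 TPM in run 2, a ratio of 23.3.

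For Mir135a the arms were closest. The ratio was 3.06 at E10, 12.5 at E13, 6.09 at E17, 1.64 in P0 replicate 2, 1.38 at P3, 2.602 at P7, 5.54 at P14 and 2.53 at P28. In P0 replicate 1 it was 1.02, with a 95% interval of 0.960 to 1.08 that covers counting error only, so that the arms could not be told apart there. The star strand lay below its partner in run 1 of P0 replicate 1 (0.910), P0 replicate 2 (0.694) and P3 (0.639), and in no run 2 library. The partner was the arm with the run difference, and the part of that difference in these ratios was not tested. In run 1 alone the mean log2 ratio was 1.15 and no longer passed (adjusted p = 0.0546).

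The relation of the ratio to stage passed in none of the 3 hairpins. Over the 9 tissue samples Pearson's r with stage order was -0.24 for Mir135a (exact permutation p = 0.533, adjusted p = 0.778, rho -0.33), 0.24 for Mir140 (p = 0.540, adjusted p = 0.778, rho 0.10) and 0.37 for Mir322 (p = 0.325, adjusted p = 0.636, rho 0.13). With the 2 samples at the outermost stages (E10 and P28) left out, r was -0.30, 0.035 and -0.08, and the permutation p of rho over all 9 was 0.375, 0.8003 and 0.732. Of 123 hairpins 3.25% passed.

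**Figure D3:**
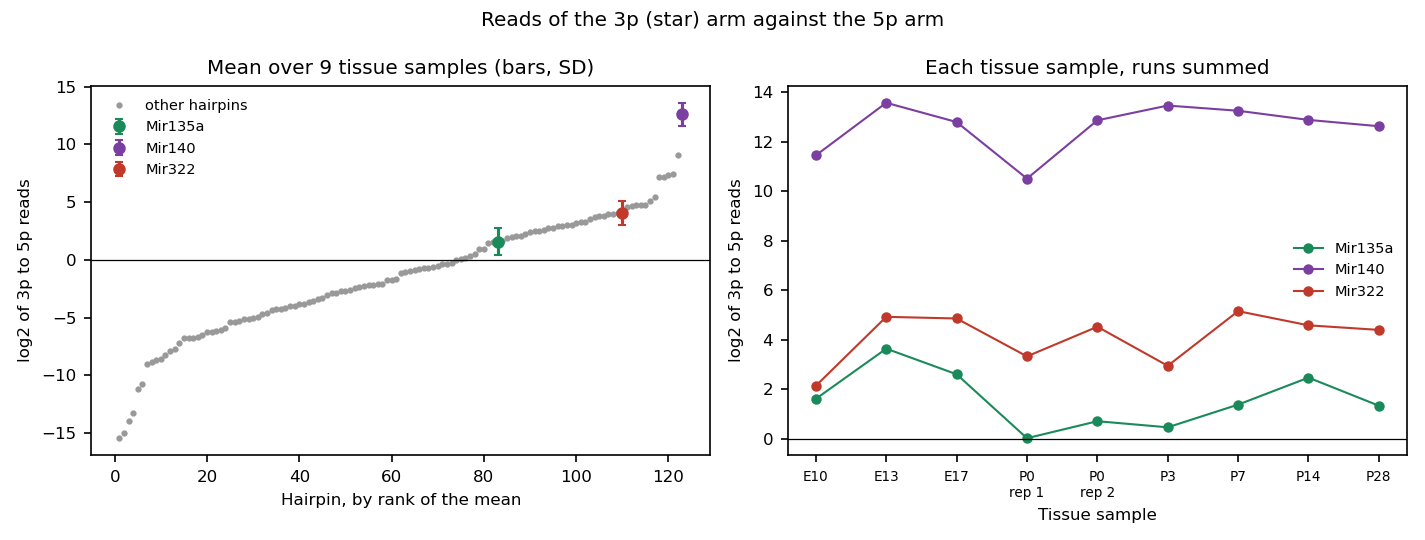
Log2 ratio of 3p (star) to 5p reads, as the mean over 9 tissue samples for 123 hairpins ordered by rank, with SD bars for the 3 described here (left), and in each tissue sample (right). Mir140 is the highest of all hairpins at 12.60, and Mir135a comes down to 0.02 in P0 replicate 1.

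The 5′ ends showed that each star strand was a mixture of seeds, and that most reads of rno-miR-140* did not start at the listed base. The most abundant tags of each strand are given here, with the seed of each start in capitals, because they show these shifts directly.
rno-miR-135a* from the mature start: tGTAGGGAtggaagccatgaa
rno-miR-135a* from 1 nt before it: aTGTAGGGatggaagccatgaa
rno-miR-140* from 1 nt after the mature start: aCCACAGGgtagaaccacgga
rno-miR-140* from the mature start: tACCACAGggtagaaccacg
rno-miR-322* from the mature start: aAACATGAagcgctgcaacac
rno-miR-322* from 1 nt before it: aAAACATGaagcgctgcaaca
rno-miR-322* from 2 nt before it: cAAAACATgaagcgctgcaaca
Of the reads of their strand these tags held 22.7% and 11.7% for rno-miR-135a*, 43.2% and 6.39% for rno-miR-140*, and 39.0%, 9.08% and 9.75% for rno-miR-322*.

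Over all libraries 84.4% of rno-miR-140* reads began 1 nt after the mature start and 12.9% at it. For rno-miR-135a* 69.8% began at the mature start and 29.8% 1 nt before it. For rno-miR-322* 72.5% began at the start, 15.5% 1 nt before and 11.3% 2 nt before. The seed of the earlier start of rno-miR-135a*, TGTAGGG, is also that of rno-miR-135b-3p, whose RefSeq sequence is shown for comparison.
rno-miR-135b-3p: aTGTAGGGctaaaagccatggg
No other counted sequence had a seed of the shifted starts of rno-miR-140* (CCACAGG) and rno-miR-322* (AAACATG and AAAACAT).

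The share of rno-miR-135a* reads that began 1 nt early ranged from 11.1% to 72.1% over the libraries. It was 53.6% and 46.2% in runs 1 and 2 of E10, 15.3% and 24.0% at E13, and 14.8% and 21.9% at E17. P0 replicate 1 had 11.1% and 25.5%, P0 replicate 2 58.4% and 15.4%, P3 72.1% and 30.8%, P7 25.3% and 40.8%, P14 13.6% and 37.1%, and P28 24.1% and 24.4%. At E10 both runs were high. In P0 replicate 2 and P3 only run 1 was, on 245 and 366 reads, with 95% Wilson intervals of 52.1% to 64.4% and 67.3% to 76.5% (counting error only). Those run 1 libraries of E10, P0 replicate 2 and P3 also had fewer rno-miR-135a* reads of 18 to 19 nt, 15.9%, 19.2% and 10.9% against 31.6% to 48.5% in the other run 1 libraries. A read that begins 1 nt early is 1 nt longer for the same 3′ end, so these shares are not independent. The part of read length in the shares was not tested.

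The share of rno-miR-140* reads that began at the mature start ran from 2.30% in run 1 of P0 replicate 1 (95% Wilson interval 2.18% to 2.41%) to 34.7% in run 2 of E10 (34.5% to 34.9%). It was higher in run 2 in 8 of 9 tissue samples. rno-miR-322* was the most even, with 64.6% to 80.3% of its reads at the mature start, and run 1 was higher in 8 of 9.

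With the runs summed, the share of reads at the main 5′ end had no relation to stage that passed. It was 49.4% to 83.5% over the tissue samples for rno-miR-135a*, 75.0% to 91.7% for rno-miR-140* and 65.9% to 78.1% for rno-miR-322*. Pearson's r with stage order (n = 9) was 0.16 for rno-miR-135a* (exact permutation p = 0.687, adjusted p = 0.906, rho -0.07), 0.23 for rno-miR-140* (p = 0.565, adjusted p = 0.854, rho 0.03) and 0.02 for rno-miR-322* (p = 0.967, adjusted p = 0.992, rho 0.03). The permutation p of rho was 0.868, 0.958 and 0.937. With the 2 samples at the outermost stages left out, r became -0.55, -0.45 and -0.23. Of 240 sequences 4.58% passed.

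**Figure D4:**
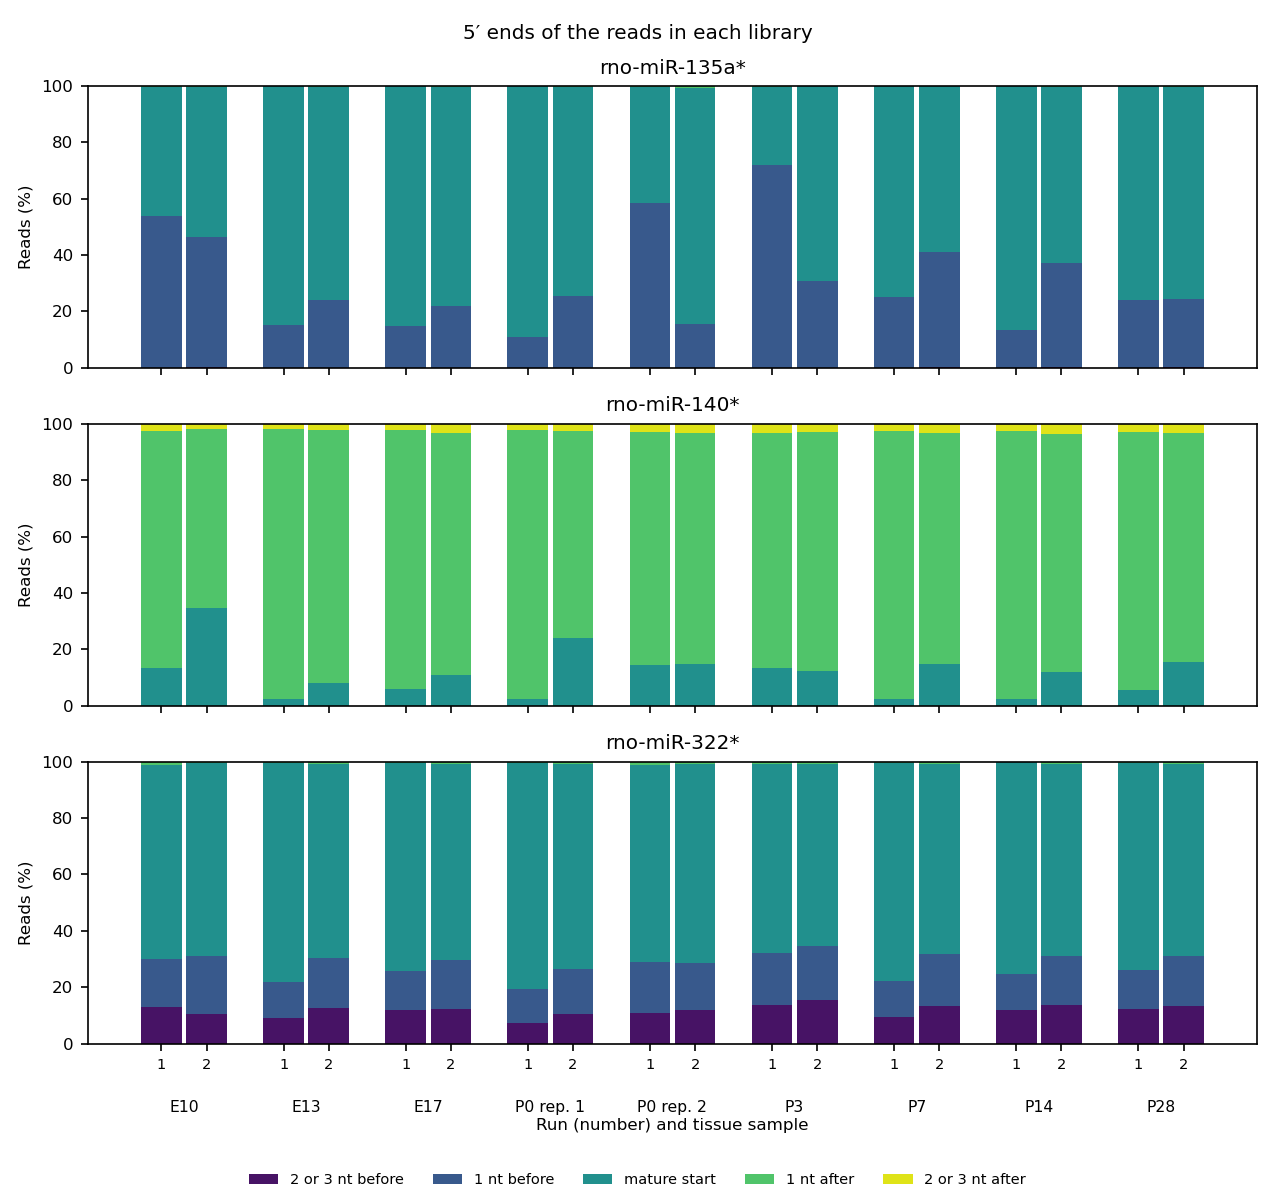
Percent of the reads of each star strand by the position of their 5′ end relative to the mature start, in each of the 18 libraries. rno-miR-140* is mostly 1 nt after the start (from 63.6% in run 2 of E10 to 95.9% in run 1 of E13), and the part of rno-miR-135a* 1 nt before the start reaches 72.1% in run 1 of P3.

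The 3′ ends are given relative to mature ends that were not set alike. The mature end of rno-miR-135a*, from the study's primers, was the RefSeq end. For rno-miR-140* and rno-miR-322* it was the commonest end among the reads of these libraries, 1 nt past the RefSeq end. Shares at or past the mature end therefore cannot be compared between rno-miR-135a* and the others. rno-miR-135a* was mostly trimmed, with 34.5% of reads ending 1 nt short of the mature end, 27.9% 2 nt short and 9.04% at it. rno-miR-322* ended at the mature end in 44.5% of reads and 1 nt short in 39.9%. rno-miR-140* ended at the mature end in 45.3% of reads and 1 nt past it in 20.3%.

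Reads that ran past the mature end often carried bases that the hairpin does not encode. They were 28.8% of rno-miR-140* reads, and in 41.8% of these the extension was untemplated, with A as the first added base in 63.0% and T in 32.7%. They were 12.8% of rno-miR-322* reads, 79.0% of these untemplated, with T first in 76.7% and A in 22.7%. They were 2.25% of rno-miR-135a* reads, 74.8% of these untemplated, with A first in 86.0%. The first untemplated base of rno-miR-322* was mostly T in every library, and that of rno-miR-135a* mostly A. For rno-miR-140* it was mostly A in every library but run 2 of E10, where T held 55.4% and A 37.2%.

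Run 2 of E10 again stood apart for rno-miR-140*. In it 88.5% of reads ran past the mature end, against 10.4% to 36.6% in the other libraries, and 62.3% (95% Wilson interval 62.0% to 62.5%) ended exactly 1 nt past. The scarcity of 18 to 19 nt tags in this library moved with this, and its part was not tested.

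The share of reads beyond the main 3′ end had no relation to stage that passed either. It was 7.56% to 15.2% over the tissue samples for rno-miR-135a* and 9.82% to 15.9% for rno-miR-322*, and for rno-miR-140* it was 52.1% at E10 and 16.0% to 29.3% elsewhere. Pearson's r with stage order (n = 9) was -0.13 for rno-miR-135a* (exact permutation p = 0.739, adjusted p = 0.833, rho -0.16), -0.43 for rno-miR-140* (p = 0.265, adjusted p = 0.422, rho -0.15) and -0.25 for rno-miR-322* (p = 0.512, adjusted p = 0.639, rho -0.24). The permutation p of rho was 0.684, 0.700 and 0.528. With the 2 samples at the outermost stages left out, r became -0.52, 0.14 and -0.53, and with E10 from run 1 only it turned to 0.13 for rno-miR-135a* and 0.18 for rno-miR-140*. Of 240 sequences 2.5% passed.

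**Figure D5:**
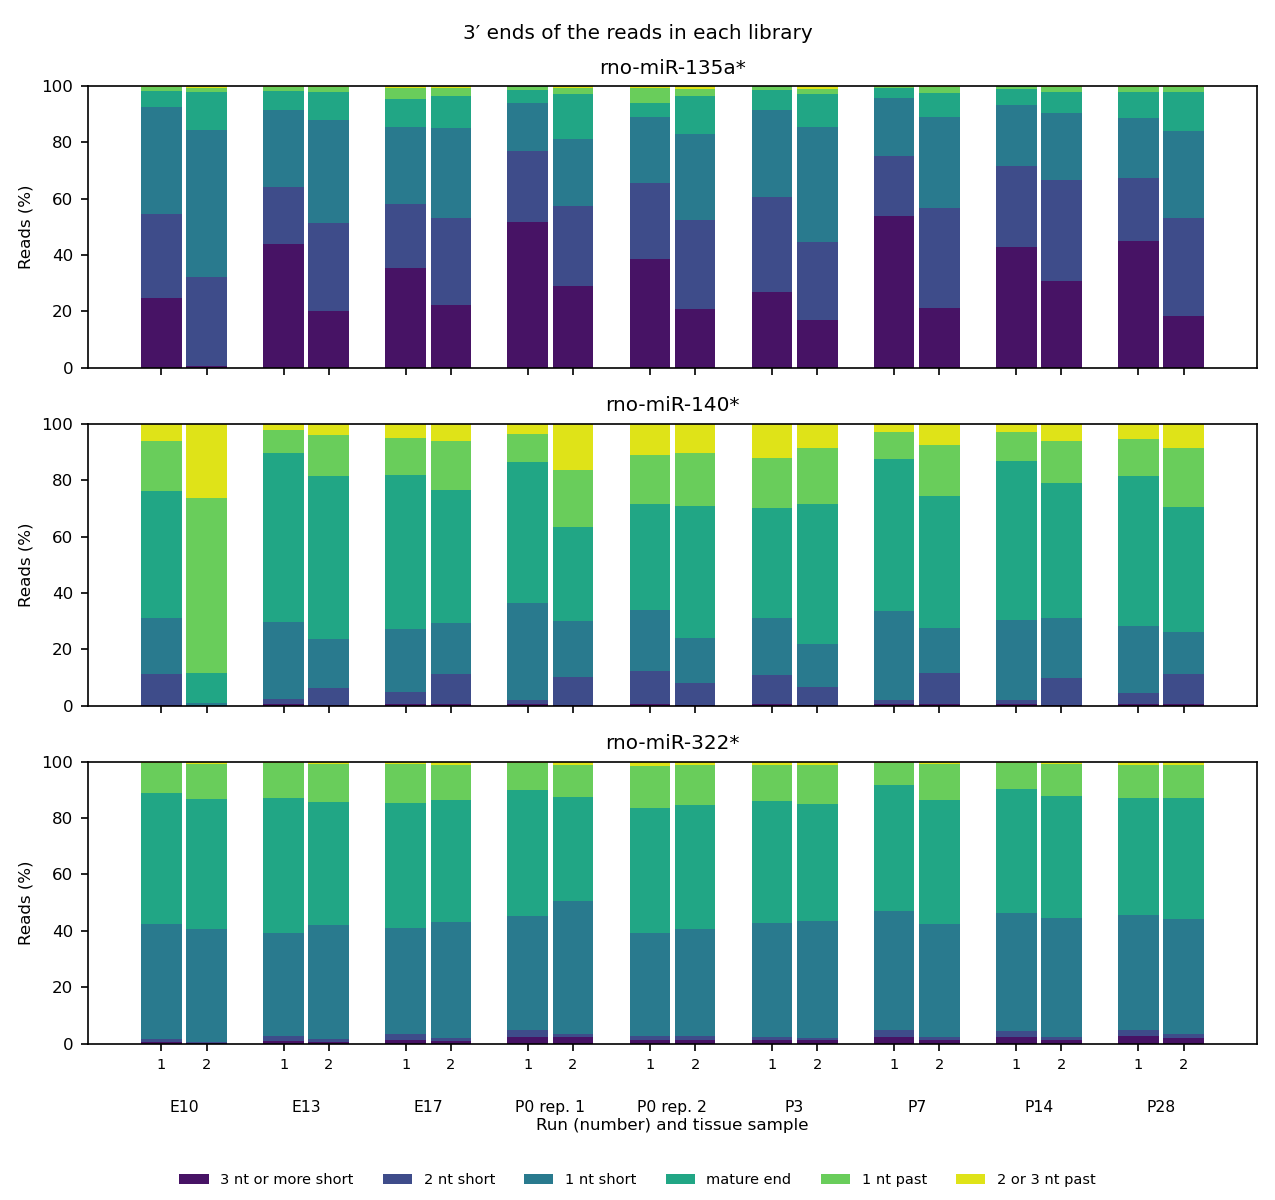
Percent of the reads of each star strand by the position of their 3′ end relative to the mature end, in each of the 18 libraries. rno-miR-135a* is mostly short of the end in every library, and run 2 of E10 has 88.5% of rno-miR-140* reads past the end.

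End variants set much of the level. With the count limited to exact copies of the mature sequence, the median over the tissue samples was 11.99 TPM for rno-miR-135a*, 33.7 TPM for rno-miR-140* and 845 TPM for rno-miR-322*, against 139, 7734 and 2106 TPM with the variants. rno-miR-140* was then below rno-miR-322*, the reverse of their order with variants. The mature sequence of rno-miR-322* was also its most abundant tag, whereas most rno-miR-140* reads began 1 nt after the mature start. The 3′ ends of both were taken from these reads, so this reversal depends on how the mature sequences were set.

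The profiles most like those of the star strands were found among 290 sequences with a mean of at least 10 TPM over the tissue samples, by Pearson's r of log2(TPM + 1) over the 9 tissue samples, given as a description since all points share their libraries. For rno-miR-135a* these were rno-miR-450b-3p (r = 0.948), rno-miR-28-3p (0.939) and rno-miR-494-3p (0.935), at 0.902, 0.841 and 0.823 within the 7 cortex samples. For rno-miR-322* they were rno-miR-181b-1-3p (0.933), rno-miR-3559-5p (0.923) and rno-miR-494-3p (0.880), at 0.951, 0.952 and 0.895 within cortex. For rno-miR-140* they were rno-miR-423-5p (0.918), rno-miR-217-5p (0.915) and rno-miR-214-3p (0.904). Within cortex the first stayed at 0.783, whereas rno-miR-217-5p came to -0.176 and rno-miR-214-3p, one of the mesenchymal markers, to -0.488, so that their likeness to rno-miR-140* rested on E10 and E13. Their lowest levels were 0.257 and 0.140 TPM, so that the values within cortex include samples with very few reads of them.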

How the data were processed

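Small RNAs of 9 rat brain tissue samples were sequenced in 2 runs each on a Solexa Genome Analyzer, after removal of meninges and subcortical tissue according to the study's methods. Adaptors, low quality reads and contaminants had been removed by the authors. What they deposited is the raw count of each unique clean tag in a library, with no mapping or normalization (tags of 18 to 30 nt in run 1, 18 to 39 nt in run 2). Here tags were matched to 724 mature entries of the RefSeq miRNA table (GRCr8), giving 691 distinct sequences, of which 621 had a read. The sequence of rno-miR-135a* was assembled from the study's primers. Those of rno-miR-140* and rno-miR-322* rest on the study's nucleotide change list, which fixed 16 and 13 positions, as the tag families with 99.3% and 98.6% of the fitting reads. The 3′ ends of these sequences were set at the commonest end among the reads of these families. Of 35161 counted tags, 355 (2.09% of reads) fitted several sequences and were counted for each.

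TPM is the count per 1e6 clean reads of a library. Slopes on stage order were fitted on counts summed over runs with edgeR 4.0.16 in R 4.3.3 (TMM, quasi-likelihood test, sequences reaching 10 counts in 2 or more tissue samples, adjusted p threshold 0.05, biological coefficient of variation 0.617 over all stages, TMM factors 0.506 to 2.10). DESeq2 1.42.0 was an alternative. End shares needed 100 reads in each tissue sample and arm ratios 10 reads per arm; their tests were exact permutation tests, two-sided, in scipy 1.17.1. Scripts were tested on simulated data. Intervals are 95% Wilson intervals for counting error only. The named sequences were the 3 star strands, their partners, cluster and family members, the 3 most similar profiles of each and the most abundant marker of each list. Members and lists were chosen with earlier results of these data known. miR-124 and miR-486 had no entry in the RefSeq miRNA table and were not analysed here.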

Additional observations from a re-analysis of the deposited data

Results flagged for a closer look

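Among the 4 libraries of P0, run 1 of P0 replicate 1 lay far above the other 3 for rno-miR-322* (4810 TPM, a gap of 0.853 of the whole range) and for the partner strands rno-miR-135a-5p (240 TPM, 0.852), rno-miR-140-5p (8.39 TPM, 0.982) and rno-miR-322-5p (610 TPM, 0.951), each gap being above Dixon's 95% critical value for 4 values. Chance alone exceeds that value in about 1 in 20 groups, and the 4 libraries are 2 runs of each of 2 tissue samples. The same library had the largest share of counted reads at 18 to 19 nt, 33.1%, and its part in these levels was not tested. With P0 replicate 1 taken from run 2 only, chosen after the data had been seen, rno-miR-135a* still fell over the 8 stages (-0.44, adjusted p = 0.0300, edgeR) and rno-miR-322* within cortex (-0.35, adjusted p = 0.0360).

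Reads of the hairpins that were not held within an arm numbered 9 for Mir135a, 5 for Mir140 and 7 for Mir322 over all 18 libraries. Of these 8, 4 and 3 lay before the 5p arm, and the others covered the loop and part of an arm. These reads enter none of the comparisons above.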

How the results depend on the processing

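With each run as a library and a replicate block for the run, which counts technical runs as replicates (18 libraries of 9 tissue samples) and so gives p-values that are too small, the slope over 8 stages was -0.47 for rno-miR-135a* (adjusted p = 0.00166), -0.17 for rno-miR-140* (0.0837) and -0.19 for rno-miR-322* (0.0714), and 299 sequences passed against 212; within cortex rno-miR-135a* passed (-0.36, 0.0473). Over 8 stages rno-miR-135a* did not pass in run 1 alone (-0.46, 0.0611) or with identical tags only (-0.42, 0.0565), and rno-miR-140* passed without TMM (-0.23, 0.0384). The number passing was 110 in run 1 alone and 76 in the study's shorter list of sequences, which has fewer tested. Without TMM the upward part of the calls went from 38.7% to 20.3% over 8 stages and from 51.0% to 62.5% within cortex. Within cortex rno-miR-322* did not pass without TMM (-0.26, 0.113), in run 1 alone (-0.35, 0.161) or in the shorter list (-0.25, 0.113), where 73 (run 1 alone) and 44 (shorter list) sequences passed. Between runs rno-miR-140* turned to -0.34 without TMM. The r of the 5′ share turned to -0.22 for rno-miR-140* with E10 from run 1 only and to -0.28 for rno-miR-322* in run 2 alone, with 0 sequences passing in run 1 alone and 1 with tags of at least 20 nt. The r of the 3′ share turned to 0.13 for rno-miR-135a* and 0.18 for rno-miR-140* with E10 from run 1 only, with 0 passing in run 1 alone and 17 in run 2 alone. In run 1 alone the mean log2 arm ratio of Mir135a was 1.15 (0.0546) and 65 hairpins passed; for Mir140 neither run alone had enough partner reads. The median level was 218 TPM for rno-miR-135a* and 3535 TPM for rno-miR-322* in run 1 alone, and 11.99, 33.7 and 845 TPM for rno-miR-135a*, rno-miR-140* and rno-miR-322* with identical tags only. The causes were not tested.

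Without each tissue sample in turn, slopes over 8 stages were -0.52 to -0.32 for rno-miR-135a*, -0.21 to -0.07 for rno-miR-140* and -0.32 to -0.12 for rno-miR-322* (passing without E10, adjusted p = 0.0251), with 145 to 228 sequences passing. Within cortex they were -0.44 to 0.15, -0.22 to -0.09 and -0.41 to -0.23, with 127 to 206 passing. Between runs they were -0.26 to 0.00489, -0.11 to 0.15 and -1.35 to -1.08, with 162 to 230 passing. The r of the 5′ share was -0.37 to 0.32, -0.48 to 0.59 and -0.23 to 0.14, with 0 to 15 passing. The mean log2 arm ratios were 1.33 to 1.78, 12.47 to 12.86 and 3.96 to 4.34 with 110 to 113 hairpins passing, and their r -0.41 to 0.040, -0.00342 to 0.45 and -0.044 to 0.56.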
